A study of Oryza sativa and Arabidopsis thaliana with 24 samples.

Results

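The plastid genome of Arabidopsis and rice encodes a near-complete set of tRNAs, and 43 of the 531 distinct tRNA sequences of the deposited tables are described here: 21 of 232 in Arabidopsis and 22 of 299 in rice. They are all rows with a plastid (ChrC) locus, except the 3 plastid tRNAs of each species for Glu-TTC, Tyr-GTA and Asp-GTC and the 6 types whose plastid genes hold an intron (Ala-TGC, Ile-GAT, Leu-TAA, Lys-TTT, Val-TAC and Gly-TCC). The rule uses loci and types and no measured value, but it was set with earlier results of these data known. They cover 19 anticodon types, the same 19 in both species.

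Plastid tRNAs serve translation inside the organelle, where ribosomes of bacterial type make subunits of the photosystems, the ATP synthase, the large subunit of Rubisco and the plastid RNA polymerase. Transfer RNAs are also cut into fragments (tRFs). In the classes of the deposited tables, a tRF-5 begins at the 5' end of the tRNA, a tRF-3 ends with the added CCA tail, and 5'-halves and 3'-halves come from a cut at or near the anticodon loop.

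Arabidopsis flower, silique, stem, stem leaf and rosette leaf came from plants grown in soil at 23 °C with 16 h of light. Rice gave panicle and, from seedlings raised in nutrient solution at 28 °C with 14 h of light, cold-treated roots and shoots (4 °C for 8 h with the light on throughout), salt-treated roots and shoots (300 mM NaCl for 8 h), and control roots and shoots. No genotype other than the species was given. Each of the 12 groups had 2 libraries, made from total RNA that was pretreated with a kit for tRNA fragments before small RNA library construction. The study calls the replicates biological without saying what separates them, so p-values and SDs measure the spread between such libraries. In every group and table replicate 1 had 0.61 to 0.68 times the reads of replicate 2. Their counts differed by more than counting error (chi-square per degree of freedom 1.82 to 3.72). Whether the libraries stem from separate plants cannot be told from the counts, so this spread may not be that between plants. The tables hold tRNAs only, so the tissue labels could not be checked against marker genes.

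Each tRNA has an abundance of its own, called tRNA signal here, and the sum of its fragments, called its tRF total. Both are given in RPM (reads scaled to library depth), computed back from the deposited log2 values. In Arabidopsis a library had between 19741 and 232097 reads in the tRNA table and between 259630 and 1536470 in the tRF table. In rice the ranges were 20674 to 150441 and 130822 to 880814. The tRNA signal of a library summed to 160329 to 850392 RPM in Arabidopsis, with silique highest, and to 43640 to 186483 RPM in rice, so tRNA signal is also given rescaled to the total of its library. A tRNA is called higher or lower at a limma adjusted p under 0.05 (Benjamini-Hochberg over all tRNAs of the table). Folds are log2 folds of RPM + 1, and the fold of group means is given beside some of them.

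The sequences differ in how well a plastid origin can be read from them. All 21 Arabidopsis sequences matched the TAIR10.1 plastid genome of RefSeq without a mismatch at the listed positions, and each lay on an annotated tRNA gene. None had a nuclear or mitochondrial locus in the deposited table, although at_tR41 (Asn-GTT) and at_tR204 (Trp-CCA) each differ by 1 base from a mitochondrial tRNA. All 22 rice sequences were listed with 3 to 10 nuclear loci besides their plastid locus, 6 of them also with mitochondrial loci, and 19 lie within 2 edits of another rice tRNA. Reads from the plastid gene and from identical nuclear copies cannot be told apart in rice. The row at_tR180 lies on the minus strand in the deposited table and on the plus strand in RefSeq.

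The 3 plastid tRNAs with the anticodon CAT show why the type alone does not name a tRNA. RefSeq gives at_tR141 as trnfM, the initiator, at_tR135 as trnM, the elongator, and at_tR102 as trnI, an isoleucine tRNA whose anticodon is modified to read a rare isoleucine codon. Their closest rice sequences are os_tR178, os_tR180 and os_tR177, at 89.6%, 97.4% and 92.2% identity. Same-type pairs of both species had a median identity of 96%. The Val-GAC tRNAs at_tR228 and os_tR295 are identical, and the Gly-GCC tRNAs at_tR90 and os_tR114 were the least alike at 81.1%.

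The sequences below are those on which most results turn, in pairs of Arabidopsis and rice, 5' to 3' with the CCA tail. Capitals mark the most abundant listed fragment that matches each tRNA without a mismatch.
at_tR141 Met-CAT: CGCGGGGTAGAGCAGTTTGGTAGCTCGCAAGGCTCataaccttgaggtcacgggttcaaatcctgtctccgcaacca
os_tR178 Met-CAT: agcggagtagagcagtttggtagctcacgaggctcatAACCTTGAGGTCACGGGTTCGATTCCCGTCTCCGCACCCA
at_tR90 Gly-GCC: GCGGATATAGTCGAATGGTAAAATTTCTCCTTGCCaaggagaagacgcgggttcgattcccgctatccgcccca
os_tR114 Gly-GCC: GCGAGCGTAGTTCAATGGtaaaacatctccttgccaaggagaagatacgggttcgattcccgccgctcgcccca
at_tR180 Ser-GCT: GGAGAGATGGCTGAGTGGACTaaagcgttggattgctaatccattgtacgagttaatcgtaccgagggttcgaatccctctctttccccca
os_tR236 Ser-GCT: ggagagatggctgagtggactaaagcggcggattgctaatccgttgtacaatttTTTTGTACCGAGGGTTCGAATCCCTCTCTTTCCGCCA
at_tR157 Pro-TGG: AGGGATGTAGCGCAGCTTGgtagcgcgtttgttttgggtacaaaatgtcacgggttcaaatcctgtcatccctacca
os_tR214 Pro-TGG: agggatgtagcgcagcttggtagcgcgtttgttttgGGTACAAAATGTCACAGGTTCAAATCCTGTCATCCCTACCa
at_tR145 Phe-GAA: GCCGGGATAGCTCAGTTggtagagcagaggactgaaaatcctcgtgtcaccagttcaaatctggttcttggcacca
os_tR197 Phe-GAA: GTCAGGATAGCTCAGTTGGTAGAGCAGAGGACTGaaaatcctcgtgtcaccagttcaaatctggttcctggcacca
at_tR228 Val-GAC: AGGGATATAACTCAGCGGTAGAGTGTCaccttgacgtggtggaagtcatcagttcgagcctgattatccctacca
os_tR295 Val-GAC: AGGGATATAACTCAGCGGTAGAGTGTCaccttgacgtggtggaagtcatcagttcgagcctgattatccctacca
at_tR41 Asn-GTT: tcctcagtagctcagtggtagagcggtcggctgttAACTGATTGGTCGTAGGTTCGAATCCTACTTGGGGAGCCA
os_tR37 Asn-GTT: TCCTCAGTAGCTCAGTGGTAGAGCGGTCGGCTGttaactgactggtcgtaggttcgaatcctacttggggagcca
at_tR114 Leu-CAA: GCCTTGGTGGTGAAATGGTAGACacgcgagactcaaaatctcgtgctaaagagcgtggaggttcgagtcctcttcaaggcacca
os_tR149 Leu-CAA: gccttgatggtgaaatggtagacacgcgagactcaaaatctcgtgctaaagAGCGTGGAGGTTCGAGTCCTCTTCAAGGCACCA
at_tR188 Ser-TGA: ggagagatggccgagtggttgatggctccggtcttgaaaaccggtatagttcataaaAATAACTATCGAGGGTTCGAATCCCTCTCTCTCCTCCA
os_tR243 Ser-GGA: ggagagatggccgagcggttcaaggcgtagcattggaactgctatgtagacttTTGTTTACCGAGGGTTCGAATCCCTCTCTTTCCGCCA
In the initiator, Pro-TGG, Ser-GCT and Leu-CAA pairs the capitals lie at the 5' end in Arabidopsis and at the 3' end in rice. In the Asn-GTT pair they lie the other way round. In the identical Val-GAC pair they cover the same bases. The last 2 lines are no pair: at_tR188 (Ser-TGA) and os_tR243 (Ser-GGA) were among the highest in tRNA signal, and their most abundant fragments are both tRF-3.

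On the TAIR10.1 plastid genome at_tR141 spans chrC:36704-36777 on the minus strand and at_tR90 spans chrC:36490-36560 on the plus strand. The minus-strand gene of at_tR180 spans chrC:7785-7872 by the deposited table, at_tR157 chrC:66490-66563 and at_tR188 chrC:35312-35403. On the plus strand lie at_tR145 at chrC:48175-48247, at_tR114 at chrC:144293-144373 and at_tR228 at chrC:100709-100780, and on the minus strand at_tR41 at chrC:109013-109084. By the deposited rice table, whose build is not given in the sources used here, os_tR197 spans chrC:47425-47497 on the plus strand and os_tR178 chrC:12839-12912 on the minus strand. All are whole tRNA genes without an intron.

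Summed over all 21 Arabidopsis tRNAs, leaves and stem held a larger share of the tRNA signal than flower and silique. The summed share was 25.0 ± 0.209% in flower, 19.3 ± 0.683% in silique, 41.3 ± 0.257% in stem, 55.1 ± 0.270% in stem leaf and 46.8 ± 0.253% in rosette leaf (SD, n = 2 each). Among tRF totals it was 6.38 ± 0.0309% in flower, 5.20 ± 0.0132% in silique, 12.4 ± 0.0416% in stem, 17.2 ± 0.0893% in stem leaf and 14.3 ± 0.0859% in rosette leaf. Shares of different tissues did not overlap on either measure. In RPM the order of the summed tRNA signal was another, with 78056 and 83301 RPM in flower, 159947 and 167651 RPM in silique, 209652 and 210538 RPM in stem, 179493 and 187247 RPM in stem leaf and 74746 and 80684 RPM in rosette leaf. On that scale rosette leaf overlapped flower and lay below silique. For Arabidopsis tRF totals RPM is itself a share, so the order in RPM is the same by construction. In bulk tissue, fewer plastids or fewer green cells and less plastid tRNA per cell cannot be told apart.

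In rice the shoots stood above panicle and roots in share. The summed share of tRNA signal was 11.2 ± 0.108% in panicle, 5.48 ± 0.316% in cold root, 3.52 ± 0.336% in salt root and 2.25 ± 0.0950% in control root, against 24.2 ± 0.636% in cold shoot, 22.4 ± 0.102% in salt shoot and 32.2 ± 0.277% in control shoot. The tRF share was 5.80 ± 0.0480% in panicle, 2.16 ± 0.0203% in cold root, 1.11 ± 0.00284% in salt root and 1.47 ± 0.0300% in control root, against 9.73 ± 0.198% in cold shoot, 7.56 ± 0.0581% in salt shoot and 15.0 ± 0.0526% in control shoot. In share both treated shoots lay below the control shoot on both measures. Both treated roots lay above the control root in tRNA signal, while in tRF share the cold root lay above it and the salt root below it. In RPM the summed tRNA signal was 19649 and 21019.5 RPM in panicle, 6046 and 6962 RPM in cold root, 5742 and 5298 RPM in salt root and 3806 and 4251 RPM in control root, against 17499 and 17953 RPM in cold shoot, 9805 and 10582 RPM in salt shoot and 14643 and 15488 RPM in control shoot. On that scale panicle lay above all shoots and cold shoot above control shoot, the reverse of the shares, while salt shoot lay below control shoot and both treated roots above control root. The summed tRF totals in RPM kept each of the orders named for the shares.

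**Figure D1:**
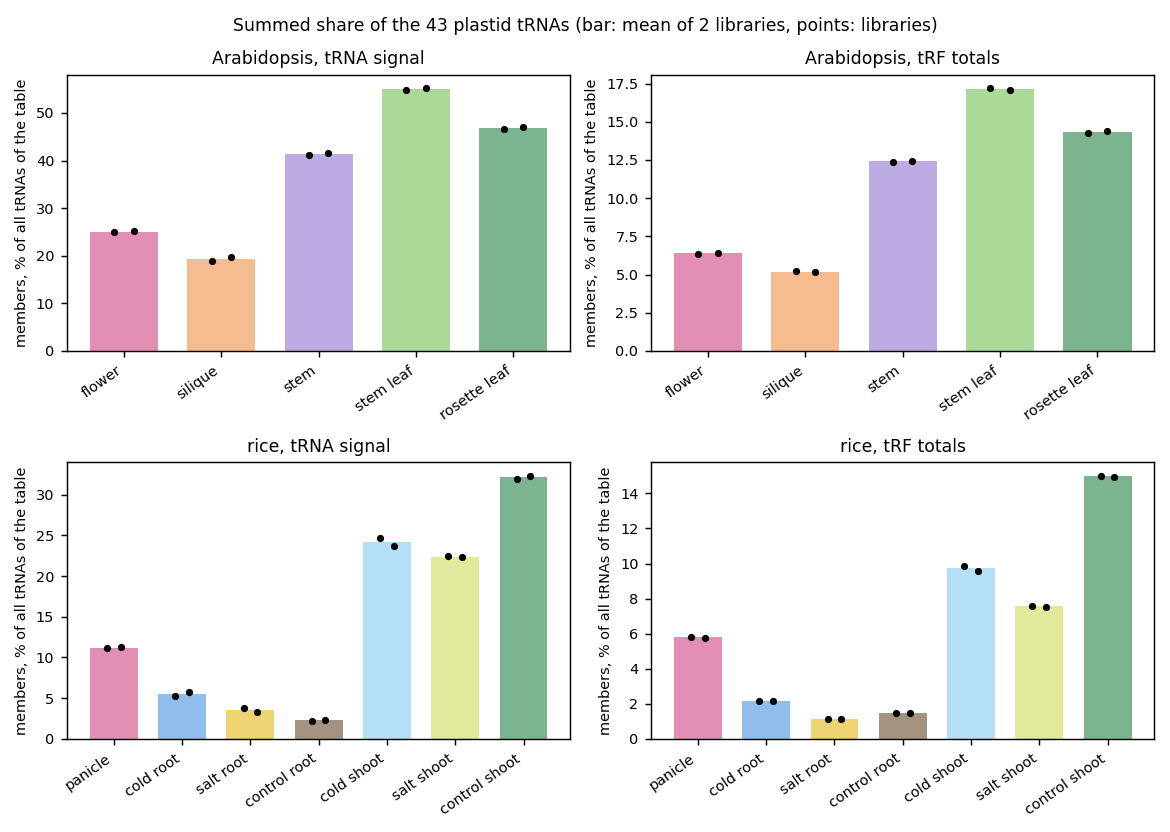
Summed share of the 43 plastid tRNAs in percent of all tRNAs of the table, with tRNA signal on the left, tRF totals on the right, Arabidopsis above and rice below. Bars are means of 2 libraries and points are libraries, and stem leaf (Arabidopsis, 55.1% of tRNA signal) and control shoot (rice, 32.2%) stand highest.

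Few Arabidopsis tRNAs carried much of the summed level. The 3 highest in each tissue held 48.1% to 59.2% of the tRNA signal and 47.9% to 57.1% of the tRF totals. Over all tissues the highest mean tRNA signals were those of at_tR90 (Gly-GCC), at_tR188 (Ser-TGA) and at_tR157 (Pro-TGG). Per nucleotide of length at_tR157 moves ahead of at_tR188. The highest mean tRF totals were those of at_tR90, the initiator at_tR141 and at_tR180 (Ser-GCT), and per nucleotide at_tR228 (Val-GAC) takes the place of at_tR180.

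at_tR90, which carries glycine, stood at 18323 and 20426 RPM in flower, 28129.6 and 33931 RPM in silique, 23879 and 25383 RPM in stem, 24498 and 27039 RPM in stem leaf and 26048 and 29375 RPM in rosette leaf. In RPM its range of group means, 0.68 on the log2 scale, was the narrowest of the 21, but it was 2.20 after rescaling to library totals. Its fragments followed another order, with a tRF total of 13024 and 13629 RPM in flower, 9535 and 10656 RPM in silique, 17737 and 18555 RPM in stem, 36465 and 34549.7 RPM in stem leaf and 55739 and 55813 RPM in rosette leaf. No libraries of different tissues overlap there, and rosette leaf is highest.

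at_tR188, a serine tRNA, stood out in stem leaf. Its tRNA signal was 4362 and 4715 RPM in flower, 15034 and 17224 RPM in silique, 20522 and 19109 RPM in stem, 58355 and 61058 RPM in stem leaf and 11512 and 11860.0 RPM in rosette leaf. Its tRF total stayed far below that, at 6047 and 5568 RPM in stem leaf and 4808 and 5097 RPM in rosette leaf. at_tR157, the plastid proline tRNA, was highest in stem. Its tRNA signal was 6845 and 7710.0 RPM in flower, 31360.4 and 30722 RPM in silique, 47658 and 44492 RPM in stem, 11957 and 12582 RPM in stem leaf and 1674 and 1591 RPM in rosette leaf. Its tRF total ranged only from 5493 and 5585 RPM in rosette leaf to 9581 and 9900.4 RPM in stem leaf.

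**Figure D2:**
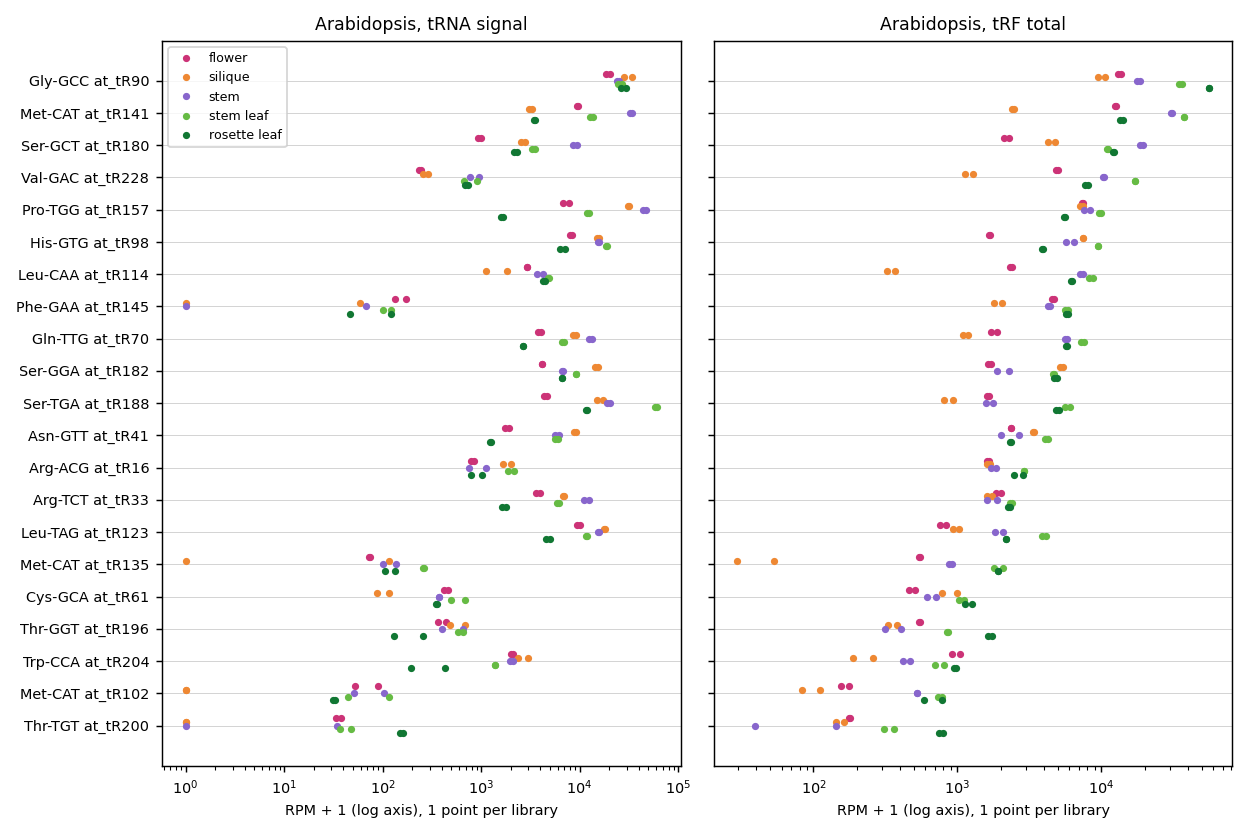
Level of each of the 21 Arabidopsis plastid tRNAs in RPM + 1 on a log axis, with tRNA signal on the left and tRF totals on the right and 1 point per library in the colour of its tissue. The tRNAs run down in the order of their tRF totals, and at_tR90 has points close together on the left and spread out on the right.

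Across the 5 tissues, 19 of the 21 tRNAs differed in tRNA signal, against 63% of all tRNAs tested. The other 2 were at_tR135 and at_tR145, both of low signal. In tRF totals all 21 differed, against 94.2% of all tRNAs, so that count is near the background. The highest tRF total lay in stem leaf for 13 tRNAs, in rosette leaf for 5 and in flower, silique and stem for 1 each. The lowest lay in silique for 12 and in flower for 6. The widest range in tRNA signal was that of at_tR200 (Thr-TGT), which had 32.8 and 37.0 RPM in flower, 0 reads in both silique libraries, 0 and 33.7 RPM in stem, 46.9 and 35.9 RPM in stem leaf and 158 and 151 RPM in rosette leaf. It is a rare tRNA, and 1 read weighs 43.1 and 28.7 RPM in the silique libraries. The widest range in tRF totals was that of the elongator at_tR135, with 543 and 545 RPM in flower, 52.3 and 28.6 RPM in silique, 870.5 and 919 RPM in stem, 1797 and 2061 RPM in stem leaf and 1909 and 1899 RPM in rosette leaf.

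Flower was set against the mean of rosette leaf, stem leaf and stem. In tRNA signal 1 plastid tRNA was higher and 13 were lower, against 39% and 9% of all tRNAs, so the lower ones were more frequent here than in the table. The median log2 fold was -0.43, against 1.42 over all tRNAs tested. The largest decrease was that of at_tR188, whose flower libraries (4362 and 4715 RPM) lay below all leaf and stem libraries (log2 fold -2.40, SE 0.06, limma adjusted p = 2.4e-08, 6.70-fold lower by group means). at_tR180, the Ser-GCT tRNA, had 937 and 986 RPM in flower, against 8645 and 9462 RPM in stem, 3264 and 3563 RPM in stem leaf and 2179 and 2336 RPM in rosette leaf, and fell by 2.10.

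The 1 higher tRNA in flower was at_tR204, the tryptophan tRNA. It had 1995 and 2089 RPM in flower, against 1979.5 and 2091 RPM in stem, 1392 and 1390.0 RPM in stem leaf and 192 and 431 RPM in rosette leaf, so flower overlapped stem (log2 fold 1.13, SE 0.26, limma adjusted p = 0.0062). The part of its mitochondrial neighbour, 1 base away, was not tested. Relative to the median of all tRNAs the direction turns (log2 fold -0.16 after median-centring). Its tRF total was also the 1 higher in flower, with 1034 and 914 RPM, against 469.9 and 418 RPM in stem, 702 and 811 RPM in stem leaf and 969.8 and 951 RPM in rosette leaf (log2 fold 0.51, SE 0.13, limma adjusted p = 0.0032). There flower overlapped rosette leaf, and the direction again turns after median-centring (-0.05).

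In tRF totals 17 of 21 were lower in flower, against 23% of all tRNAs, and 1 was higher, against 51.3%. The median was -1.11, against 0.49 for all. at_tR180 showed the largest decrease. It had 2269 and 2106 RPM in flower, against 18707 and 19547 RPM in stem, 11160.4 and 11002 RPM in stem leaf and 12142 and 12161 RPM in rosette leaf, with no overlap (log2 fold -2.65, SE 0.04, limma adjusted p = 1.7e-15). The isoleucine-reading at_tR102 (log2 fold -1.95), the histidine tRNA at_tR98 (-1.86) and the glutamine tRNA at_tR70 (-1.80) fell next. at_tR33 (Arg-TCT, -0.13), at_tR157 (-0.03) and at_tR200 (-0.59) did not pass the test.

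Silique gave opposite splits on the 2 scales of tRNA signal. In RPM 10 tRNAs were higher and 8 lower, against 47.5% and 10.5% of all, with a median of 0.25 against 1.61. Rescaled to library totals, 1 was higher and 17 lower, against 24% and 17%, with a median of -1.23 against 0.20. On both scales the median plastid tRNA thus lay below the median tRNA. The rescaled value of at_tR204, the largest increase in RPM with 2369 and 3009 RPM in silique (log2 fold 1.51, SE 0.26, limma adjusted p = 7.4e-04), was 0.03, and after median-centring it was -0.14. Of the 10 higher ones, at_tR157 alone passed as higher on the rescaled scale as well (log2 fold 1.67 in RPM, 0.19 rescaled).

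The 8 tRNAs lower in silique fell on either scale. The initiator at_tR141 had 3274 and 3066 RPM in silique, against 32349 and 33631 RPM in stem, 13609.8 and 12672 RPM in stem leaf and 3544 and 3457 RPM in rosette leaf (log2 fold -1.86, SE 0.05, limma adjusted p = 6.9e-09). All 6 of those libraries lay above both silique libraries. The cysteine tRNA at_tR61 had 86.2 and 115 RPM in silique, against 376 and 371 RPM in stem, 495 and 679 RPM in stem leaf and 358 and 344 RPM in rosette leaf (-2.08). Leu-CAA at_tR114 had 1120.0 and 1834 RPM in silique, against 3733 and 4284 RPM in stem, 4740.0 and 4856 RPM in stem leaf and 4261 and 4498 RPM in rosette leaf (-1.61). Val-GAC at_tR228 (258 and 287 RPM in silique, -1.52) also stood below all leaf and stem libraries. at_tR180 (-0.62) and at_tR188 (-0.58) were lower by smaller folds, and their silique libraries lay above those of rosette leaf.

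The remaining 2 lower calls, at_tR102 and at_tR200, rest on very few reads. Neither had a read in a silique library, and at_tR102 had 50.1 and 101 RPM in stem, 115 and 43.1 RPM in stem leaf and 30.2 and 31.7 RPM in rosette leaf. The 3 reads that a count of 0 allows weigh 129 RPM in the shallower silique library, more than either tRNA's mean in leaves and stem, so no fold is given.

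Silique fragments were lower for most plastid tRNAs. In tRF totals 16 of 21 were lower, against 28.8% of all tRNAs, and 3 were higher, against 50%, with a median of -1.45 against 0.49. The elongator at_tR135 was lower by the largest fold (log2 fold -5.23, SE 0.17, limma adjusted p = 1.0e-12). Next came at_tR114 with 325 and 367 RPM in silique, against 7479.9 and 7054 RPM in stem, 8199 and 8803 RPM in stem leaf and 6278 and 6203 RPM in rosette leaf (-4.39, 21.2-fold lower by group means). The initiator at_tR141 had 2392 and 2460.5 RPM in silique, against 30624 and 30756 RPM in stem, 37405 and 37249 RPM in stem leaf and 13478 and 14182 RPM in rosette leaf (-3.37). No silique library of these 3 overlapped a leaf or stem library.

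The 3 higher tRF totals in silique were those of at_tR182 (Ser-GGA), at_tR98 (His-GTG) and at_tR41 (Asn-GTT). at_tR182 had 5393 and 5123 RPM in silique, against 1891 and 2299 RPM in stem, 4642 and 4695 RPM in stem leaf and 4914 and 4698 RPM in rosette leaf (log2 fold 0.54, SE 0.06, limma adjusted p = 2.3e-06). at_tR98 had 7475 and 7415 RPM in silique, against 6451 and 5661 RPM in stem, 9549 and 9554 RPM in stem leaf and 3927 and 3878 RPM in rosette leaf (0.29). at_tR41 had 3394 and 3368 RPM in silique, against 2011 and 2677 RPM in stem, 4274 and 4033 RPM in stem leaf and 2303 and 2367 RPM in rosette leaf (0.26). Only at_tR182 lay above every leaf and stem library, since stem leaf exceeded silique for at_tR98 and at_tR41. All 3 turn direction after median-centring (-0.24, -0.50 and -0.53), where 0 of 21 are higher and 21 lower. In that setting the median was -2.24, against -0.30 over all tRNAs, and at_tR182 stays above the latter. The share of all tRNAs called there is not given. at_tR41 lies 1 base from a mitochondrial tRNA, whose part in its value was not tested. Of the listed fragment reads, 79.7% for at_tR182 and 45.3% for at_tR98 also match at least 1 other tRNA. Their nearest tRNAs without a plastid locus, at_tR183 and at_tR99, are 4 and 3 edits away, and the part of other tRNAs in these totals was not tested.

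Stem was set against the mean of both leaf groups. In tRNA signal 9 plastid tRNAs were higher and 3 lower, against 41.5% and 5% of all, with a median of 0.48 against 0.93. Rescaled, the split was 5 higher and 9 lower, against 18% and 12%, with a median of -0.64 against 0. at_tR157 rose the most (log2 fold 3.36, SE 0.06, limma adjusted p = 7.1e-10, 6.63-fold by group means, 2.25 rescaled). The initiator at_tR141 (2.28), Arg-TCT at_tR33 (1.88) and at_tR180 (1.70) rose as well, all without overlap. The 3 lower ones, at_tR16 (Arg-ACG, -0.54), at_tR188 (-0.42) and at_tR182 (-0.21), fell by less. at_tR16 and at_tR182 overlapped rosette leaf in stem, and at_tR188 lay between both leaf groups.

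In stem tRF totals 16 of 21 were lower, against 35.4% of all tRNAs, and 3 were higher, against 33.2%, with a median of -0.45 against -0.07. at_tR200 was lower by the largest fold, with 38.5 and 142 RPM in stem, against 361 and 309 RPM in stem leaf and 792 and 747 RPM in rosette leaf (log2 fold -2.75, SE 0.36, limma adjusted p = 1.0e-05). at_tR180 was higher in both measures, with a tRF total of 18707 and 19547 RPM in stem against 11160.4 and 11002 RPM in stem leaf and 12142 and 12161 RPM in rosette leaf (log2 fold 0.72, SE 0.05, limma adjusted p = 4.2e-09). at_tR141 (0.43) and at_tR157 (0.11) were higher too but lay between the 2 leaf groups, and at_tR157 turns direction after median-centring (-0.01).

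The 22 rice tRNAs were not all measurable. The tRNA table holds 21 of them, without the histidine tRNA os_tR137, and os_tR179 (Met-CAT) had at most 3.60 RPM of tRNA signal and was listed at 0 reads in 13 of 14 tRF libraries. With a mean of at least 1 RPM required, 20 were tested in tRNA signal and 21 in tRF totals. The 3 highest tRNAs of each group held 55.1% to 62.1% of the summed tRNA signal and 49.8% to 67.9% of the summed tRF totals. os_tR243 (Ser-GGA), os_tR178 (the initiator) and os_tR236 (Ser-GCT) had the highest mean tRNA signals, and os_tR197 (Phe-GAA), os_tR243 and os_tR214 (Pro-TGG) the highest mean tRF totals.

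os_tR243 had the highest tRNA signal in all 7 groups. It had 5330.0 and 5696 RPM in panicle, 1732 and 1877 RPM in cold root, 1848 and 1560.2 RPM in salt root and 1044 and 1101 RPM in control root. Shoots had 4992 and 5179 RPM with cold, 3048 and 3341 RPM with salt and 4000.2 and 4157 RPM in control. The phenylalanine tRNA os_tR197 had the highest tRF total in all 7 groups, with 2347 and 2268 RPM in panicle, 900.3 and 945 RPM in cold root, 693 and 675 RPM in salt root, 738 and 775 RPM in control root, 3812 and 3748 RPM in cold shoot, 3872 and 3948 RPM in salt shoot and 6569.6 and 6749.7 RPM in control shoot. Its tRNA signal was only 0 to 47.9 RPM in all 14 libraries. The initiator os_tR178 was the reverse, with 2301 and 2484 RPM of tRNA signal and 287 and 278 RPM of tRFs in control shoot.

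**Figure D3:**
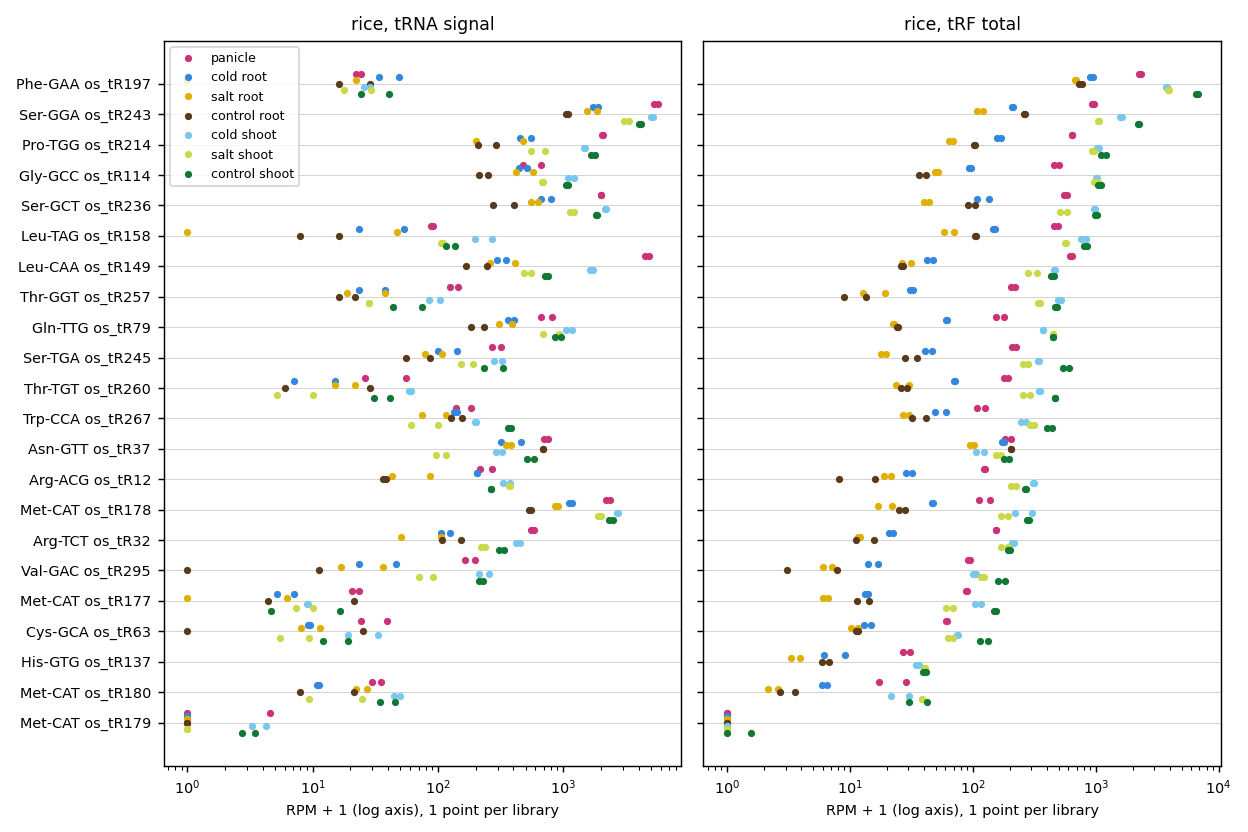
Level of each rice plastid tRNA in RPM + 1 on a log axis, with tRNA signal on the left and tRF totals on the right and 1 point per library in the colour of its group. os_tR197 lies far right among tRF totals and far left in tRNA signal. Among tRF totals, control root libraries lie left of control shoot libraries for nearly all tRNAs.

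Roots, which hold plastids without chlorophyll, were low in plastid tRNAs and in their fragments. In tRNA signal 15 of 20 were lower in control root than in control shoot and 0 were higher, against 15.2% lower and 59% higher among all tRNAs. The median was -1.89, against 2.12 over all tRNAs. Rescaled, 0 were higher and 18 lower, against 32% and 24.2%, with a median of -3.90 against 0.45. In tRF totals 20 of 21 were lower, against 39.7%, and 0 were higher, against 42.6%, with a median of -3.54 against 0.04.

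Val-GAC os_tR295 was lower in root tRNA signal by the largest fold. Control roots had 0 and 3 reads (0 and 10.3 RPM), and control shoots had 229 and 212 RPM (log2 fold -6.04, SE 0.78, limma adjusted p = 3.1e-06). By reads it was 35.6-fold lower in root than in shoot, with a 95% counting interval of 12.1- to 173-fold that covers counting error only. The threonine tRNA os_tR257 was lower in root tRFs by the largest fold, with 7.89 and 12.6 RPM in control root, against 483 and 465 RPM in control shoot (log2 fold -5.43, SE 0.18, limma adjusted p = 1.1e-15, 46.3-fold lower by group means). os_tR197 had 738 and 775 RPM of tRFs in control root, against 6569.6 and 6749.7 RPM in control shoot (-3.14). The Gly-GCC tRNA os_tR114 had 40.8 and 35.7 RPM in control root, against 1103 and 1047 RPM in control shoot (-4.78). For the 20 lower tRF totals no control root library reached a control shoot library. The share of all tRNAs without such an overlap is not given.

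The exception was os_tR37, the asparagine tRNA, listed with 10 nuclear loci. Its tRF total was 204 and 203 RPM in control root, against 197 and 178 RPM in control shoot (log2 fold 0.12, SE 0.10, limma adjusted p = 0.28). Its tRNA signal was 694 and 688 RPM in control root, against 510.5 and 580.4 RPM in control shoot (log2 fold 0.34, SE 0.18, limma adjusted p = 0.098). Neither passed the test in RPM, but rescaled to library totals its tRNA signal was lower in root (-1.59, limma adjusted p = 3.4e-06). It made up 17.2% of the summed tRNA signal of these tRNAs in control root and 3.62% in control shoot. os_tR295 also has 10 nuclear loci. The part of nuclear copies in these values was not tested.

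Panicle was set against control shoot. In tRNA signal 4 of 20 were higher and 2 lower, against 65.6% and 2.46% of all tRNAs, with a median of 0.08 against 2.37. Rescaled, 1 was higher and 12 lower, against 30.3% and 12.7%, with a median of -1.87 against 0.67. The 1 that was higher on both scales was Leu-CAA os_tR149. It had 4490.2 and 4811 RPM in panicle, against 716 and 752 RPM in control shoot (log2 fold 2.66, SE 0.20, limma adjusted p = 4.4e-09, 0.71 rescaled), and its panicle libraries exceeded all other rice libraries. The other 3 higher in RPM were os_tR257 (1.23), os_tR32 (Arg-TCT, 0.82) and os_tR243 (0.43), and all 3 are below 0 after rescaling.

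Lower in panicle tRNA signal were Trp-CCA os_tR267 and Gly-GCC os_tR114. os_tR267 had 183 and 139 RPM in panicle, against 363 and 379 RPM in control shoot (log2 fold -1.21, SE 0.29, limma adjusted p = 0.0013). os_tR114 had 478 and 663 RPM in panicle, against 1055 and 1083 RPM in control shoot (log2 fold -0.92, SE 0.18, limma adjusted p = 2.2e-04). In tRF totals 17 of 21 were lower, against 26.1% of all, and 1 was higher, against 50.7%, with a median of -1.0 against 0.33. os_tR267 again was lower by the largest fold, with 107 and 124 RPM in panicle, against 404 and 442 RPM in control shoot (log2 fold -1.86, SE 0.14, limma adjusted p = 6.0e-10). The 1 higher was again os_tR149, with 613 and 638 RPM in panicle, against 455 and 435 RPM in control shoot (log2 fold 0.49, SE 0.11, limma adjusted p = 3.8e-04). Panicle and control shoot libraries did not overlap for any of these values.

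Few plastid tRNAs differed in tRNA signal between cold and control shoot. In cold shoot 2 of 20 were higher and 2 lower than in control shoot, against 36.5% and 2.46% of all, with a median of 0.25 against 0.68. Rescaled, 0 were higher and 6 lower, against 16% and 9.02%. Leu-CAA os_tR149 had 1726 and 1637 RPM in cold shoot, against 716 and 752 RPM in control shoot (log2 fold 1.19, SE 0.20, limma adjusted p = 1.7e-04), a call that is lost on the rescaled scale (0.55). os_tR267 had 201 and 198 RPM in cold shoot, against 363 and 379 RPM in control shoot (log2 fold -0.89, SE 0.29, limma adjusted p = 0.024). Without replicate 2 of cold shoot or replicate 1 of control shoot, 2 calls were made in place of 4.

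All tRF totals that passed the test in cold shoot were lower there. In tRF totals 10 of 21 were lower and 0 higher, against 19.1% and 31.2% of all, with a median of -0.27 against 0.10. os_tR197 was lower by the largest fold, with 3812 and 3748 RPM in cold shoot, against 6569.6 and 6749.7 RPM in control shoot (log2 fold -0.82, SE 0.04, limma adjusted p = 9.8e-13).

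In root, cold went with higher plastid tRNAs. In tRNA signal 10 of 20 were higher in cold root than in control root and 1 was lower, against 11.1% and 24.2% of all, with a median of 0.83 against -0.29. Rescaled, 10 were higher and 0 lower, against 18.9% and 5.74%. os_tR295 had 22.4 and 45.1 RPM in cold root, against 0 and 10.3 RPM in control root (log2 fold 3.29, SE 0.78, limma adjusted p = 0.0035), which by reads is a ratio of 5.83 with a 95% counting interval of 1.87 to 29.4. Arg-ACG os_tR12 had 204 and 203 RPM in cold root, against 35.5 and 37.8 RPM in control root (2.44). The initiator os_tR178 had 1102 and 1179.6 RPM in cold root, against 532 and 554 RPM in control root (1.07). The 1 lower was os_tR37, with 319.9 and 459 RPM in cold root, against 694 and 688 RPM in control root (log2 fold -0.85, SE 0.18, limma adjusted p = 0.0016), a call lost on the rescaled scale (-0.26), and it was also lower in cold shoot (-0.83). Without replicate 2 of cold root, 7 calls were made in place of 11.

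Most root fragment totals were higher with cold too. In tRF totals 16 of 21 were higher and 1 lower, against 26.1% and 29.4% of all, with a median of 0.66 against -0.0042. os_tR295 had 13 and 15.8 RPM in cold root, against 2.06 and 6.84 RPM in control root (log2 fold 1.65, SE 0.29, limma adjusted p = 8.3e-05). The threonine tRNA os_tR257 had 29.8 and 31.4 RPM in cold root, against 7.89 and 12.6 RPM in control root (1.52). The 1 lower was os_tR243, with 207 and 210.1 RPM in cold root, against 259 and 267 RPM in control root (log2 fold -0.33, SE 0.06, limma adjusted p = 4.5e-05), a call lost on the rescaled scale (-0.12), although its tRNA signal rose (0.75). The cold root tRF totals of these 3 lay below those of every shoot library.

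All plastid tRNAs that passed the test in salt shoot were lower there. In tRNA signal 8 of 20 were lower in salt shoot than in control shoot and 0 higher, against 13.1% and 13.5% of all, with a median of -0.64 against -0.07. os_tR37 had 95 and 116 RPM in salt shoot, against 510.5 and 580.4 RPM in control shoot (log2 fold -2.37, SE 0.18, limma adjusted p = 1.3e-07, 5.18-fold lower by group means). Trp-CCA os_tR267 had 99.2 and 60.0 RPM in salt shoot, against 363 and 379 RPM in control shoot (-2.25), and Pro-TGG os_tR214 had 555 and 714 RPM in salt shoot, against 1679 and 1791 RPM in control shoot (-1.46). Without replicate 1 of salt shoot or replicate 2 of control shoot, 4 calls were made in place of 8. In tRF totals 13 of 21 were lower and 0 higher, against 21.7% and 40.1%, with a median of -0.50 against 0.18. Rescaled, 0 were higher and 18 lower, against 28.3% and 36.8%. The isoleucine-type os_tR177 was lower by the largest fold, with 68.1 and 59.5 RPM in salt shoot, against 153 and 148 RPM in control shoot (log2 fold -1.23, SE 0.18, limma adjusted p = 8.2e-06).

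In salt root, more plastid tRNAs were higher than lower in tRNA signal, while the direction in tRF totals depended on the scale. In tRNA signal 7 of 20 were higher and 2 lower, against 14.8% and 12.3% of all, with a median of 0.58 against -0.07. Rescaled, 8 were higher and 1 lower, against 19.3% and 9.02%. os_tR295 had 15.7 and 35.3 RPM in salt root, against 0 and 10.3 RPM in control root (log2 fold 2.87, SE 0.78, limma adjusted p = 0.01), by reads a ratio of 4.46 with a 95% counting interval of 1.23 to 24.4. Gly-GCC os_tR114 had 571 and 417 RPM in salt root, against 213 and 251 RPM in control root (1.07). The lower ones were os_tR37, with 382 and 349 RPM in salt root, against 694 and 688 RPM in control root (-0.92), and Arg-TCT os_tR32, with 105 and 49.4 RPM in salt root, against 152 and 107 RPM in control root (log2 fold -0.81, SE 0.28, limma adjusted p = 0.043), whose call is lost on the rescaled scale (-0.63). Without replicate 1 of control root, 5 calls were made in place of 9.

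In tRF totals 11 of 21 were lower in salt root and 3 higher, against 35.7% and 21% of all, with a median of -0.35 against -0.09. After median-centring 12 were higher and 3 lower, but the median over all tRNAs moved up as well. It was 0.72 there, against 0.46 for the plastid tRNAs, which thus stayed below it at their median. The share of all tRNAs called in that setting is not given. Ser-GCT os_tR236 was lower by the largest fold, with 43.2 and 39.2 RPM in salt root, against 90.2 and 103 RPM in control root (log2 fold -1.21, SE 0.09, limma adjusted p = 3.2e-09). os_tR243 (-1.21) and os_tR37 (-1.05) also fell. The higher ones were Arg-ACG os_tR12, with 18.1 and 20.8 RPM in salt root, against 7.20 and 15.2 RPM in control root (log2 fold 0.82, SE 0.21, limma adjusted p = 0.0023), os_tR257 (0.52, with overlapping libraries) and Gly-GCC os_tR114 (0.38). Without replicate 1 of control root, 9 calls were made in place of 14.

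**Figure D4:**
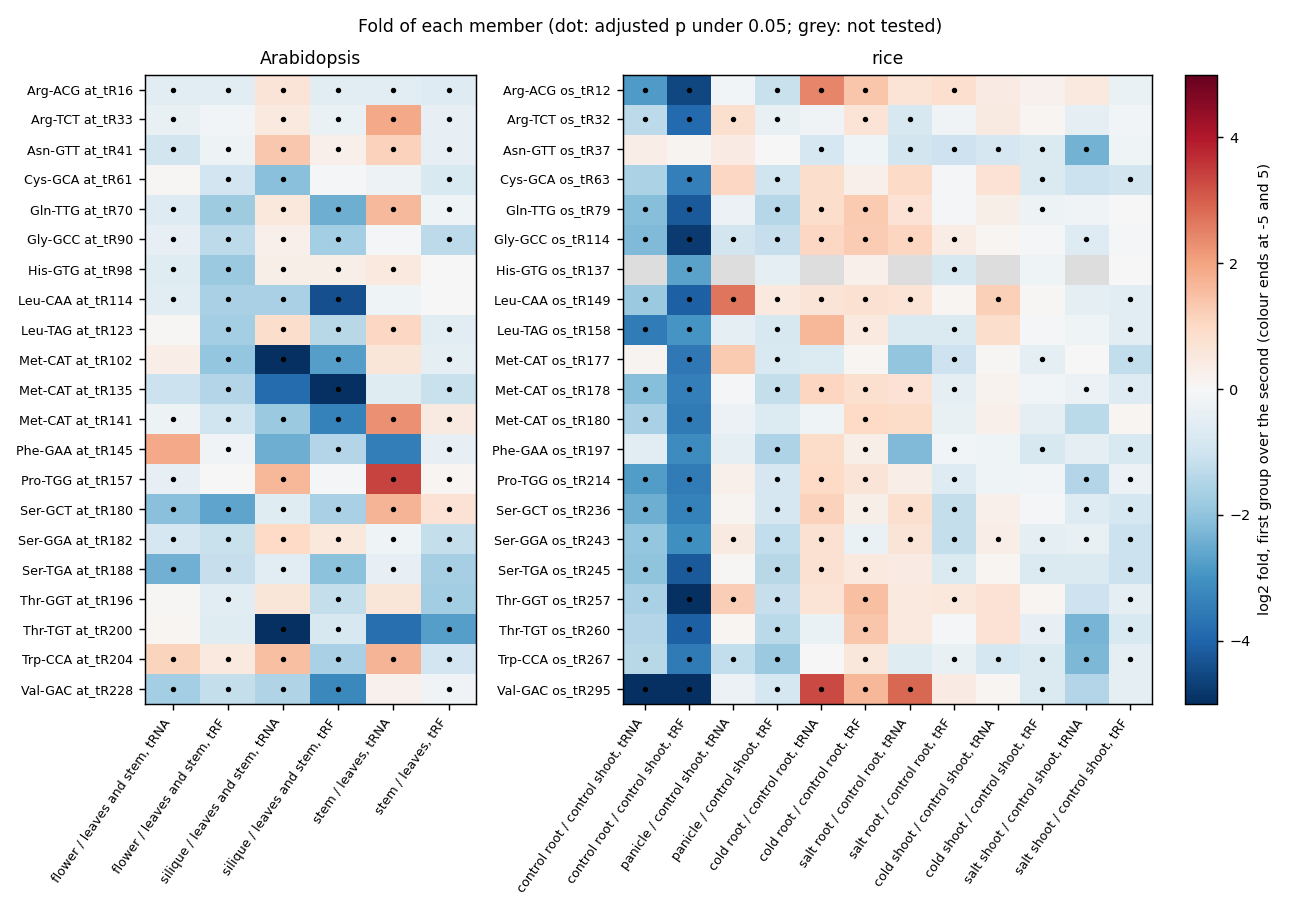
Log2 fold of each plastid tRNA (rows) in each comparison (columns), first group over the second, with Arabidopsis on the left and rice on the right, dots marking an adjusted p under 0.05 and grey cells tRNAs that were not tested. The control root columns of rice are blue for nearly all tRNAs, the cold root columns mostly red, and Asn-GTT os_tR37 is near white in the control root columns.

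For many plastid tRNAs the stress effects differed between root and shoot. The cold effect in root minus that in shoot was above 0 for 7 of 20 tRNAs in tRNA signal and below 0 for 0, against 6.97% and 36.5% of all, and for 18 and 0 of 21 in tRF totals, against 24.3% and 36%. Its median was 0.62 against -1.08 in tRNA signal and 0.99 against -0.16 in tRF totals. os_tR295 showed the largest difference in both, with log2 values of 3.21 (SE 1.10, limma adjusted p = 0.027) and 2.37 (SE 0.41, limma adjusted p = 6.8e-05). Without replicate 2 of cold root, 4 calls were made in tRNA signal in place of 7. Rescaled, 11 were above 0 and 0 below, against 13.1% and 11.9% of all.

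The salt effect in root minus that in shoot was above 0 for 10 of 20 in tRNA signal and below 0 for 0, against 12.3% and 11.9% of all, with a median of 1.32 against 0. In tRF totals 7 were above 0 and 3 below, against 16.5% and 46.7%, with a median of 0.19 against -0.37. Rescaled, that split was 12 and 1, against 28.3% and 33.5%. Below 0 in tRF totals were os_tR37 (log2 fold -0.83, SE 0.14, limma adjusted p = 4.4e-05), os_tR214 (-0.37) and os_tR236 (-0.33). All 3 turn above 0 after median-centring (0.33, 0.80 and 0.84), where 18 plastid tRNAs are above 0 and 0 below. In that setting the median was 1.36, against 0.80 over all tRNAs, so 0 is not the midpoint and os_tR37 stays below the median tRNA. The share of all tRNAs called there is not given. os_tR12 had the largest positive value (log2 fold 1.15, SE 0.29, limma adjusted p = 0.0023).

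The balance of fragments and tRNA signal differed widely between tRNAs. By the mean of both libraries, the phenylalanine tRNA at_tR145 had the highest log2 ratio of tRF total to tRNA signal in each Arabidopsis tissue, between 4.94 ± 0.31 in flower and 9.03 ± 4.28 in stem. In silique and in stem its replicate 1 had no read of tRNA signal. In silique replicate 2 its ratio was 4.95, below at_tR200 (7.35) and at_tR102 (6.79), both without a read of tRNA signal there. Its tRNA signal was 0 to 172 RPM, and its tRF total was 4702 and 4569.6 RPM in flower, 2026 and 1803 RPM in silique, 4259.9 and 4404 RPM in stem, 5569 and 5910.5 RPM in stem leaf and 5870.4 and 5664 RPM in rosette leaf. at_tR188 had the lowest ratio in silique, stem, stem leaf and rosette leaf (-1.24 ± 0.03 in rosette leaf), and at_tR123 (Leu-TAG) in flower (-3.63 ± 0.16). In rice the phenylalanine tRNA os_tR197, without a read of tRNA signal in replicate 1 of salt root, had the highest ratio in all 7 groups, with 5.14 ± 0.53 in control root against 7.73 ± 0.49 in control shoot. The initiator os_tR178 had the lowest, with -4.35 ± 0.15 in control root against -3.08 ± 0.11 in control shoot (SD, n = 2 each). Both tables pass through the authors' own scaling, so a ratio ranks tRNAs within a group and is no yield of fragments.

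The ratio differed across Arabidopsis tissues for 19 of 21 tRNAs, against 59% of all. Its 2 parts are scaled to different totals, so differences between tissues in the ratio also carry that scaling. Between control root and control shoot it was lower in root for 14 of 20 rice tRNAs and higher for 0, against 67.8% and 2.09% of all, a share near the background. Rescaled to library totals, 5 were higher and 2 lower, against 13% and 22.2%.

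Individual fragments were matched to the tRNAs without a mismatch. Of the listed fragments, 3462 in Arabidopsis and 1081 in rice matched no tRNA this way and were assigned to none. They held 6.36% to 16.9% of the listed RPM of a library in Arabidopsis and 10.5% to 28.9% in rice. Of the 5826 listed Arabidopsis fragments, 615 matched these plastid tRNAs only and 72 matched them and other tRNAs. Of 2794 in rice, 61 matched them only and 311 also matched others, and 12 rice tRNAs share every listed fragment with another tRNA, while os_tR179 has no listed fragment. Across the 5 Arabidopsis tissues 371 of 684 tested fragments differed, against 33.2% of all listed. In rice 316 of 372 were lower in control root than in control shoot and 4 were higher, against 27.5% and 21.9% of all listed.

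In Arabidopsis the listed fragments of these tRNAs came mainly from the 5' side, as did the other listed fragments. Over all tissues tRF-5 and 5'-halves were more than 50% of the listed reads of 14 of 21 tRNAs and over 90% of 5, and they were 0% for at_tR41, at_tR102 and at_tR123. In rice they were more than 50% for 8 of 21, over 90% for os_tR295 alone, and 0% for 5. A share of 0% says that no 5' fragment without a mismatch is listed, not that none exists. Listed 5' fragments with a mismatch are not counted. Rosette leaf had the smallest share of tRF-5 among the tissues. There tRF-5 made up 41.4% and 5'-halves 40.7% of the listed reads of these tRNAs, while in stem tRF-5 made up 67.3% and 5'-halves 25.5%. Among the other listed fragments the values were 61.2% and 27.2% in rosette leaf and 62.6% and 31.2% in stem. In rice salt shoot tRF-5 made up 52.2% and tRF-3 31.0%, and in control shoot tRF-5 made up 37.3% and tRF-3 45.9%. The other listed fragments had 52.0% and 10.8% in salt shoot and 46.0% and 20.8% in control shoot, so tRF-5 was higher with salt there too. Counts of tRNAs by 5' share were not made for the other tRNAs. These shares were not tested.

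**Figure D5:**
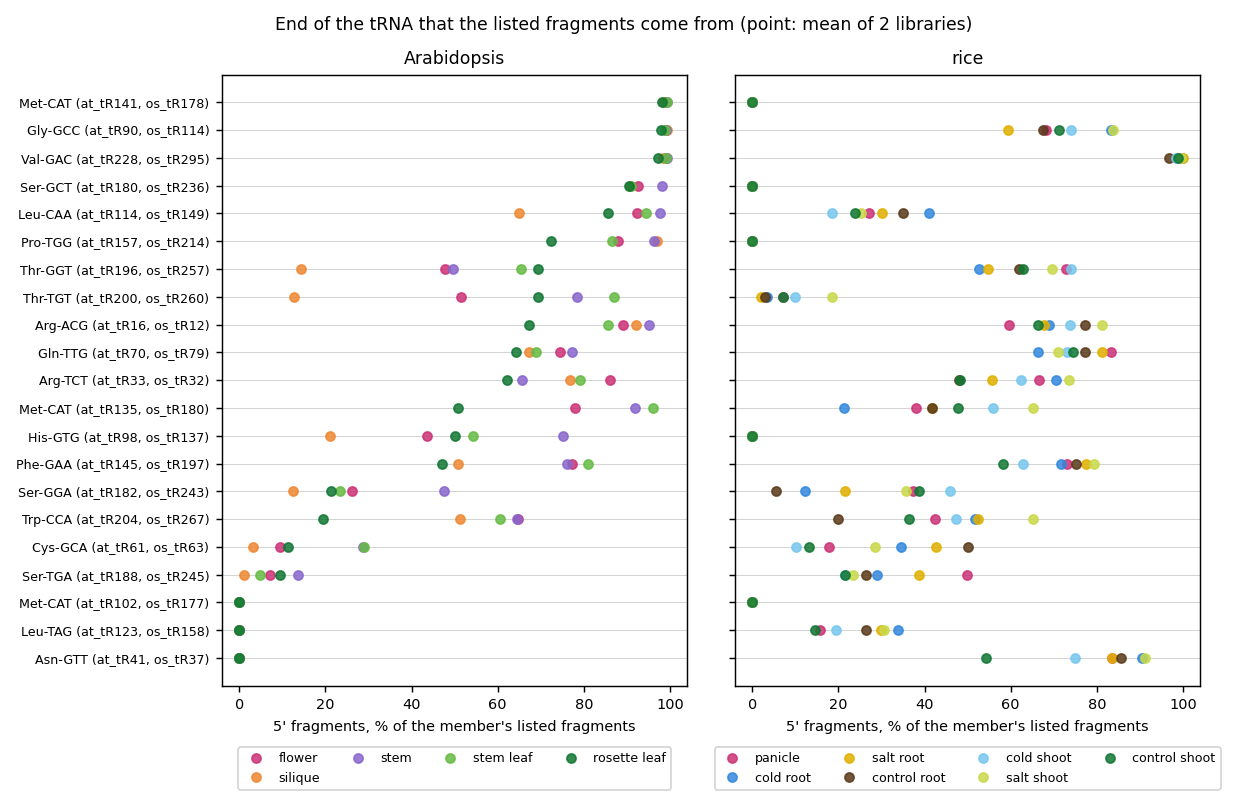
Share of each tRNA's listed fragment reads that come from its 5' end, in percent, with Arabidopsis on the left and the rice tRNA of the same type on the right and 1 point per group (mean of 2 libraries). The initiator, Ser-GCT and Pro-TGG pairs lie right in Arabidopsis and at 0% in rice, and Asn-GTT the other way round. Only fragments without a mismatch are counted.

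The sequences printed above show where these fragments end. The most abundant 5'-half of at_tR90, bases 1 to 35, stops at the last base of the anticodon and made up 28.7% of the listed reads of this tRNA. It had 2019.7 and 2128 RPM in flower, 1891 and 2117 RPM in silique, 8131 and 8623 RPM in stem, 15179 and 14245 RPM in stem leaf and 8108 and 8720.2 RPM in rosette leaf. It was highest in stem leaf, whereas the tRF total of at_tR90 was highest in rosette leaf. The most abundant tRF-5, bases 1 to 21 of at_tR180, had 577 and 537 RPM in flower, 833 and 634 RPM in silique, 7977 and 8269 RPM in stem, 4795 and 4787 RPM in stem leaf and 2488 and 2775 RPM in rosette leaf, so stem was highest as for the whole tRF total.

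Fragments of the 3' end were rarer in Arabidopsis. The most abundant tRF-3, bases 49 to 83 of Leu-TAG at_tR123, had 83.9 and 71.6 RPM in flower, 89.7 and 50 RPM in silique, 535 and 729 RPM in stem, 1411 and 1573 RPM in stem leaf and 562 and 687 RPM in rosette leaf. The most abundant 3'-half, bases 36 to 75 of at_tR41, had 89.0 and 91.8 RPM in flower, 33.6 and 33.3 RPM in silique, 104 and 159.6 RPM in stem, 402 and 338 RPM in stem leaf and 158 and 107 RPM in rosette leaf. Both were highest in stem leaf. The widest range belonged to a longer tRF-5 of at_tR114, bases 1 to 33, which had no read in silique, 115 and 61.2 RPM in flower, 61.6 and 66.3 RPM in stem, 269 and 230.4 RPM in stem leaf and 476 and 474 RPM in rosette leaf.

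In rice the most abundant tRF-5 was bases 1 to 34 of os_tR197, which end at the first base of its anticodon. It had 108 and 92.9 RPM in control root, against 955 and 960.2 RPM in control shoot (log2 fold -3.24, SE 0.08, limma adjusted p = 8.9e-17), and no other tRNA holds it. The most abundant tRF-3, bases 55 to 91 of os_tR236, had 31.2 and 36.5 RPM in control root, against 289.7 and 289 RPM in control shoot (-3.06). Both control root libraries lay below both control shoot libraries for these fragments. The most abundant 3'-half, bases 36 to 74 of os_tR114, which os_tR119 also holds, had 4.80 and 4.70 RPM in control root, against 138 and 127 RPM in control shoot. The most abundant 5'-half, bases 1 to 40 of os_tR114, also held by os_tR116, had no read in control root, against 157 and 159 RPM in control shoot. The largest increase in root was that of bases 1 to 32 of os_tR37, shared with os_tR45, with 50.1 and 43.8 RPM in control root, against 14.5 and 10.0 RPM in control shoot (log2 fold 1.87, SE 0.28, limma adjusted p = 1.9e-05).

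The same tRNA type often gave different fragments in each species. Of 21 pairs, 11 had a most abundant fragment of the same class, 6 of them at the same positions, and 13 had most listed reads on the same end. The 6 were Arg-TCT (bases 1 to 40), Cys-GCA (55 to 74), the isoleucine-type pair at_tR102 and os_tR177 (58 to 77), the elongator pair (1 to 34), Thr-GGT (1 to 33) and Val-GAC (1 to 27). The identical Val-GAC tRNAs had 98.8% of listed reads from the 5' end in Arabidopsis and 99.1% in rice. The initiator had 99.0% in Arabidopsis and 0% in rice, Ser-GCT 93.9% and 0%, and Pro-TGG 89.2% and 0%. These shares cover fragments without a mismatch only. Leu-CAA, whose sequences differ by 1 base, had 92.9% in Arabidopsis and 24.2% in rice. The rice fragments are listed per sequence, and the listed fragments sum to 19.9% to 271% of a rice tRNA's tRF total (10.0% to 106% in Arabidopsis), so they are a sample of it or are shared with other tRNAs.

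Levels in rosette leaf and in rice control shoot were set side by side over the pairs, as a description. Spearman's rho between shares of the summed tRNA signal was 0.73 over 20 pairs (Pearson's r 0.24), and between shares of tRF totals 0.40 over 21 pairs (r 0.086). For the log2 ratio it was 0.37 over 20 pairs, and for the 5' share 0.13 over 21. All pairs share the same libraries.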

How the data were processed

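The authors deposited, for each species, a list of tRNAs, the abundance of each tRNA, the summed fragments of each tRNA and the abundance of each fragment, as log2 values of RPM plus 1 per the file headers. Adapter trimming used cutadapt, and TAIR10 was the Arabidopsis build, per the submitters' processing notes. The aligner, the treatment of reads that match several tRNAs and the rice build are not stated in the labels or headers used. Log2 values were turned back to RPM, and whole reads (within 0.05 of a whole number) came out with an added 0.5 in the tables per tRNA and 1 in the fragment table.

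limma 3.58.1 (R 4.3.3, moderated test with a mean-variance trend) was fitted on log2(RPM + 1), 1 mean per group and species, over all tRNAs or fragments with a mean of at least 1 RPM, with identical rows joined and Benjamini-Hochberg adjustment. A fold on this scale can understate or overstate the change of low tRNAs, the latter where a library had no read. For os_tR295 tRNA signal, with 3 reads in control root, log2 folds of -6.04 (root against shoot), 3.29 (cold root) and 2.87 (salt root) are larger changes than those by reads. By reads these were 35.6-, 5.83- and 4.46-fold. Python 3.11.15 with pandas 2.3.3 and scipy 1.17.1 did the rest. In simulated Arabidopsis tRNA signal of 198 tRNAs, 57.1% of 21 tRNAs changed 2-fold in flower and 80% of 15 changed 4-fold were called. The simulated spread between libraries was a fixed setting and was not taken from these replicates, so these percentages need not hold for them. Counting intervals and floors of 3 reads cover counting error only. Deviations of same-numbered libraries correlated at 0.10 to 0.24 over all pairs of Arabidopsis fragment libraries, which was taken as pairing. In rice fragments they correlated at 0.052 to 0.16, where some pairs were under the 0.1 required of each. Replicate 1 had fewer reads than replicate 2 in every group, so a shared batch and this depth difference cannot be told apart. The replicate block is given in the closing part.

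The members and lists were chosen with earlier results of these data known. Values by library are given for the 3 tRNAs highest in each table, the largest changes without overlap in each direction and calls against the prevailing direction. Further tRNAs named with values were chosen after their values were seen.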

Additional observations from a re-analysis of the deposited data

Results flagged for a closer look

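Cold and salt effects differed between rice organs by a test of the difference itself, the effect in root minus the effect in shoot, in the limma fit at an adjusted p under 0.05. For cold, 7 of 20 plastid tRNAs were above 0 and 0 below in tRNA signal, against 6.97% and 36.5% of all tRNAs, and 18 of 21 above and 0 below in tRF totals, against 24.3% and 36%. For salt, 10 of 20 were above 0 and 0 below in tRNA signal, against 12.3% and 11.9%, and 7 of 21 above and 3 below in tRF totals, against 16.5% and 46.7%. The Val-GAC tRNA os_tR295 had the largest differences in tRNA signal, 3.21 for cold and 4.33 for salt on the log2 scale, and in tRF totals for cold, 2.37. Its tRNA signal in control root rests on 3 reads. In tRF totals for salt, Arg-ACG os_tR12 had 1.15 and Asn-GTT os_tR37 had -0.83.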

How the results depend on the processing

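Of 1032 values of 57 named results under other settings, 956 kept their direction and side of the threshold, 64 lost the call and 12 turned direction. The settings include leaving out each library of the species, also those outside the comparison, which bear on the pooled spread but not on the fold. The named results were picked by size or direction in these same data, so the 956 is no measure of robustness. After median-centring, at_tR204 turned to -0.16 (tRNA signal, flower), -0.14 (tRNA signal, silique) and -0.049 (tRF total, flower). In silique tRF totals at_tR182 turned to -0.24, at_tR98 to -0.50 and at_tR41 to -0.53, and in stem at_tR157 turned to -0.00604. The medians over all tRNAs in that setting were -0.30 for silique and -0.19 for stem. The salt difference between organs in tRF totals turned to 0.33 for os_tR37, 0.84 for os_tR236 (0.038 rescaled) and 0.80 for os_tR214 (0.0069 rescaled), and its calls went to 18, against 10. The median-centred difference had a median of 0.80 over all tRNAs, so the whole table lay above 0 there at its median. In tRNA signal, panicle calls went to 13 rescaled and 14 median-centred, against 6, cold shoot calls to 8 median-centred, against 4, and calls of the cold difference to 11 on both scales, against 7. Calls of the ratio in root went to 7 on both scales, against 14. With a mean of at least 10 RPM, 105 rice fragments were called, against 320, since fewer were tested. The cause of the other moves was not tested.

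Leaving out 1 library gave 2 to 4 calls for cold shoot, 4 to 9 for salt shoot, 7 to 12 for cold root, 5 to 11 for salt root and 4 to 8 for the cold difference in tRNA signal, and 9 to 16 for salt root in tRF totals. With the replicate block, 391 Arabidopsis fragments were called, against 371, and in rice 7 tRNAs in panicle, against 6, and 5 in cold shoot, against 4 (tRNA signal). No count moved by over 1.5 times with the block. Rice fragments also correlated by number in every pair (0.052 to 0.16), and in the tRNA and tRF total tables some pairs were below 0. With 2 libraries a group and as few as 19741 reads of tRNA signal, differences of low tRNAs rest on few reads. In Arabidopsis silique and stem, where 1 read weighs 16.9 to 43.1 RPM of tRNA signal, this holds below about 100 RPM. In the other libraries it holds at lower levels.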
